A study of Mus musculus with 6 samples.

Results

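Chemokine receptors are the G-protein-coupled receptors by which leukocytes read gradients of small secreted proteins, the chemokines, and move towards them. A bound receptor signals through inhibitory G proteins to phosphoinositide 3-kinase and Rac, and is then switched off by receptor kinases and arrestins. In injured liver, CCR2 is known for the recruitment of monocytes that become macrophages, CXCR2 for that of neutrophils, and CXCR3 and CXCR6 for the homing of T and NK cells.

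The genes described here are 8 such receptors, Ccr1, Ccr2, Ccr3, Ccr7, Cxcr2, Cxcr3, Cxcr4 and Cxcr6. They were chosen by name, of 23363 genes matched to the deposited tables. All 8 passed the filter on low reads, which left 15605 genes to test.

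The data came from 3 KO and 3 WT libraries of liver cells that were selected on magnetic columns for F4/80, a surface antigen of mouse macrophages. All mice were C57BL/6 males 3 months old. All had been given carbon tetrachloride (CCl4) into the peritoneum, a toxin that injures hepatocytes and leads to fibrosis. There was no group without CCl4. The gene deleted in the KO mice, and the cells in which it is deleted, are not named in the labels, and its level could therefore not be checked. Nor is it stated whether the libraries derive from separate animals, so p-values measure the spread between these libraries, which may be technical.

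With 1 transcript per gene, the KO libraries held 10786029 to 19154578 reads and the WT libraries 15021020 to 22151038. Values are the authors' normalised counts, that is, reads divided by 1 factor per library. The macrophage genes were read in every library. Adgre1, which encodes F4/80, had 4441, 4648 and 6673 normalised counts in KO and 6516, 7644 and 4463 in WT libraries. Genes of other cells moved with genotype. The summed level of 14 hepatocyte markers was 109032 to 203330 in KO and 27385 to 84404 in WT libraries, and that of 12 endothelial markers was 62523 to 124446 in KO and 29759 to 56276 in WT. The list with the largest median log2 change was erythroid, at 3.20 with 7 of 7 genes above 0 and none called. Its sum was 30738 to 268695 in KO, highest in KO replicate 1, and 2221 to 33339 in WT. Called higher were 8 of 14 hepatocyte and 5 of 12 endothelial markers, beside 2.08% of all tested genes. Genes of stellate cells and myofibroblasts were called higher in 2 of 12 cases, beside the same share. They summed to 29582 to 52796 in KO and 18679 to 24988 in WT. The sum of 18 leukocyte markers was 113591 to 168746 in KO and 177167 to 224412 in WT, and none of these markers was at 0 in any library. Of the leukocyte markers 17 of 18 had a log2 change below 0, with a median of -0.50. In such bulk samples, fewer cells of a type and less RNA per cell cannot be told apart, and the part of these shifts in the receptor values was not tested. KO replicate 1 stood apart from the other libraries on the second principal component, at -75.8, where the others lay between -18.6 and 31.3.

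Of all stretches of 50 bases in the measured Ccr2 transcript, 2.27% were found in a transcript of another gene. For Cxcr2 the share was 4.07%, and for Ccr1, Ccr3, Ccr7, Cxcr3, Cxcr4 and Cxcr6 no such stretch was found in another gene. No exon of the 8 transcripts overlapped an exon of another gene on either strand. Neither read length nor the handling of multi-mapping reads is stated in the labels.

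No receptor gene passed the test of KO against WT. None of the 8 had an adjusted p under 0.05 in limma, a linear model on log2(value + 1) with p-values adjusted over all 15605 genes. Over all tested genes 2.44% were called, 2.08% higher and 0.352% lower in KO, so a group of 8 genes with no call is near the background. At an unadjusted p under 0.05 there was 1 receptor, Ccr2, where the share over all genes was 18%, and 5.88% for genes lower in KO. On whole reads recovered from the values, edgeR's quasi-likelihood test called none of the 8, where it called 1.78% of all genes. DESeq2 called none of the 8 either, where it called 9% of all genes. At an unadjusted p under 0.05 edgeR had 2 receptors and DESeq2 had 3, where the shares over all genes were 18.2% and 19.7%. Of the 8 receptors 3 had a log2 change below 0, as had 45.8% of all tested genes. In 1 receptor, Ccr2, the KO and WT values did not overlap, as in 22.9% of all tested genes. Log2 changes of the receptors ran from -1.41 for Ccr3 to 0.89 for Ccr7, with a median of 0.12 beside 0.05 for all tested genes. A change that did not pass is not shown to be absent, and the 95% intervals given below state its possible size in these libraries.

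**Figure D1:**
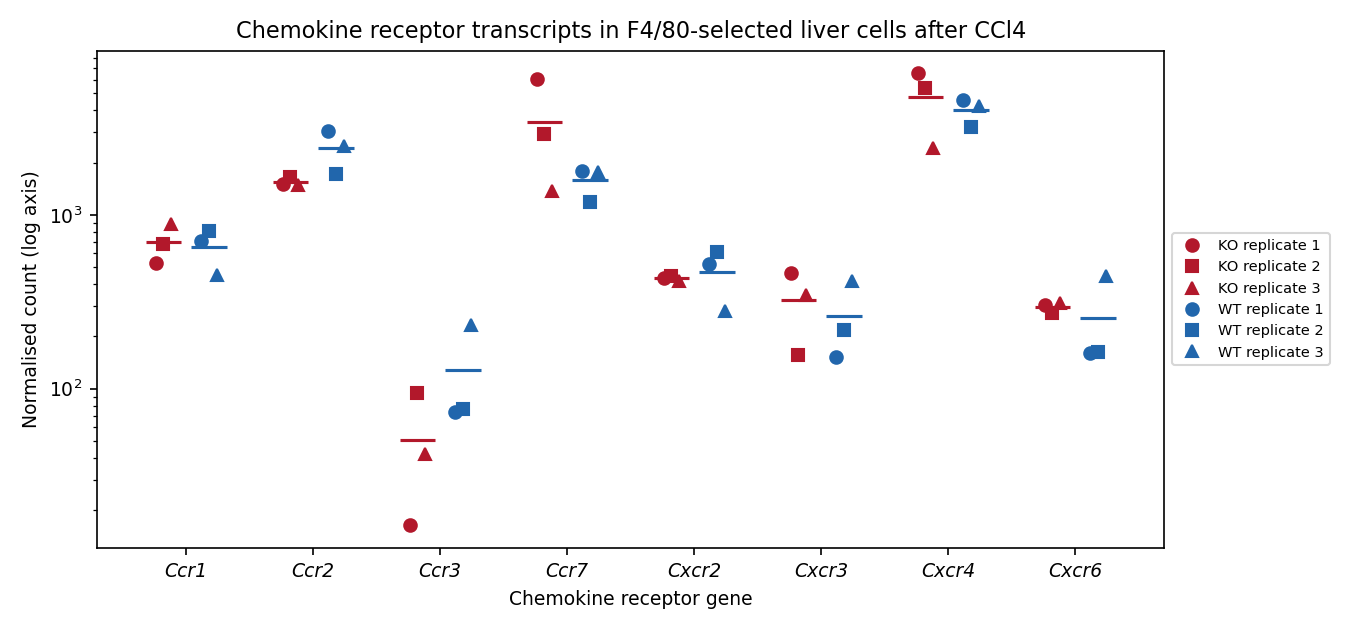
Normalised counts of the 8 receptor genes, on a log axis, in each of the 3 KO libraries (red, left of each pair) and 3 WT libraries (blue, right). Points are libraries, with a marker shape per replicate number, and bars are group means. Ccr2 is the gene whose KO values, 1485 to 1645, all lie below its WT values, 1727 to 3044.

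Per transcript length, Cxcr4 was the highest of the receptors and Ccr7 the next in each of the 6 libraries, and Ccr3 was the lowest in each. In units of normalised counts per kb of the kept transcript, Cxcr4 averaged 2637 ± 1169 in KO and 2219 ± 387 in WT libraries (SD, n = 3 each). Ccr7 averaged 1739 ± 1206 per kb in KO and 801 ± 171 in WT libraries. The level of Ccr3 was 15.6 ± 12.1 per kb in KO and 39.1 ± 28.0 in WT libraries. Cxcr4 and Ccr7 together dominated the summed receptor level. Cxcr4 held 43.0% to 55.1% of it in KO and 52.4% to 55.1% in WT libraries, and Ccr7 held 22.1% to 39.7% in KO and 17.7% to 19.9% in WT.

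Between these extremes the order was less sharp. Ccr2 came next by its mean in both genotypes, at 270.0 ± 15.1 per kb in KO and 423 ± 115 in WT libraries. Ccr1 followed, at 247 ± 64.9 per kb in KO and 231 ± 64.6 in WT. Cxcr3, Cxcr6 and Cxcr2 stood at 186, 156 and 142 per kb in KO, and in WT the order was Cxcr2, Cxcr3 and Cxcr6, at 154, 151 and 135. In KO libraries the ranges of each pair of neighbours overlapped from Ccr2 down to Cxcr2, and those of Cxcr4 and Ccr7 overlapped too. In WT libraries Cxcr4, Ccr7 and Ccr2 had ranges that did not overlap with the next gene down, while Ccr1, Cxcr2, Cxcr3 and Cxcr6 overlapped with each other. The level and overlaps of Ccr2 rest on its kept transcript of 5728 bases. Its transcript of 3515 bases had nearly the same normalised counts, 1445, 1586 and 1420 in KO and 2948, 1675 and 2414 in WT libraries. Per kb of that transcript Ccr2 would stand higher, and its order and overlaps were not assessed on it.

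**Figure D2:**
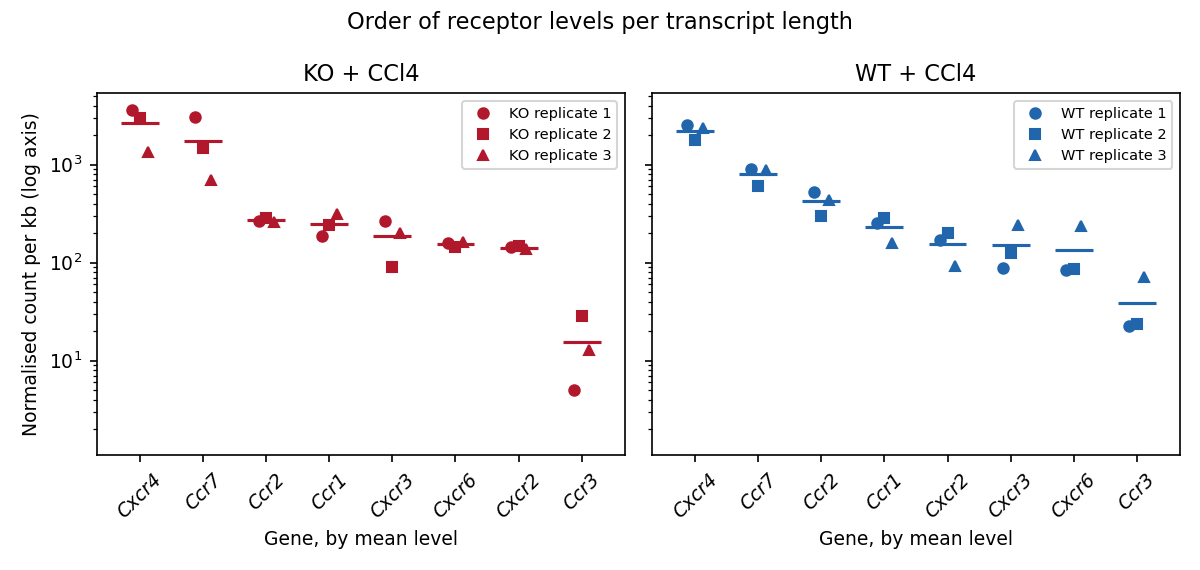
Level per kb of transcript, on a log axis, of the 8 receptors in KO libraries (left panel) and WT libraries (right panel), ordered by the group mean (bars). Points are the 3 libraries of a group. Cxcr4 and Ccr7 stand first and Ccr3 last in both panels. Of the 5 genes between them, neighbours overlap in range, except that Ccr2 lies above Ccr1 in WT libraries. The level of Ccr2 rests on its kept transcript of 5728 bases.

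Ccr2 encodes the receptor for CCL2, CCL7 and CCL12 in the mouse and marks classical monocytes that enter injured tissue. The gene (ENSMUSG00000049103) was measured by a transcript on the plus strand of chromosome 9, at 124102158 to 124109507. It had 1509, 1645 and 1485 normalised counts in KO libraries, against 3044, 1727 and 2494 in WT libraries, from 1013 to 4442 reads each. The KO values were close together and all lay below the lowest WT value, that of WT replicate 2. Over all tested genes, 9.24% had KO values that all lay below the WT values. The means were 1547 ± 86.5 in KO and 2422 ± 661 in WT libraries (SD, n = 3 each). The log2 change was -0.61 (SE 0.22, 95% interval -1.10 to -0.12, limma adjusted p = 0.179), so it did not pass.

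Tools on recovered reads gave Ccr2 log2 changes of -0.70 in edgeR (adjusted p = 0.133) and -0.69 in DESeq2 (adjusted p = 0.0528). With each library left out in turn its log2 change ran from -0.83 to -0.43 and the limma adjusted p from 0.0702 to 0.418. With leukocyte list scaling, in which the 18 leukocyte markers set the factor of each library, the change of Ccr2 was -0.058 (limma adjusted p = 0.887). The median log2 change of all tested genes moved to 0.59 with it. Relative to that median Ccr2 was at -0.65 with leukocyte scaling and at -0.66 with the authors' factors. A factor per library shifts all genes alike, so these values had to be nearly equal and their likeness adds no support. The leukocyte-scaled values of Ccr2 were 1361, 2304 and 2082 in KO and 2180, 1517 and 2227 in WT libraries, and the groups overlapped. The other 3 annotated transcripts of Ccr2 had lower means. For the one that runs furthest at the 3′ end the groups overlapped, at 547, 778 and 546 normalised counts in KO and 1158, 760 and 944 in WT libraries.

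With the authors' factors, other genes of classical monocytes lay on the same side of 0 as Ccr2, with no call. Of 10 such markers, Ccr2 among them, 9 had a log2 change below 0, with a median of -0.45. Without Ccr2 it was 8 of 9, with a median of -0.45. The general leukocyte list also lay below 0, in 17 of 18 genes and with a median of -0.50. With leukocyte list scaling the median of the 10 monocyte markers turned to 0.10, where that of all tested genes was 0.59. The summed level of the 9 markers other than Ccr2 was 93403 to 221438 in KO and 67315 to 101220 in WT libraries, and it was led by fibronectin (Fn1), which other liver cells also make. Without Fn1 and haptoglobin (Hp), both left out after their values were seen, the remaining 7 markers summed to 16199, 13505 and 9466 in KO and 24036, 14024 and 20705 in WT libraries. The groups overlapped in both sums. Because the genes left out were picked by their values, the trimmed sum adds no support to a direction. None of the monocyte markers was at 0 in any library.

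Ccr1 encodes a receptor for CCL3, CCL5 and related chemokines on monocytes and neutrophils. Its gene (ENSMUSG00000025804) is on chromosome 9, minus strand, from 123962124 to 123968692. It had 526, 680 and 892 normalised counts in KO libraries, against 711, 804 and 451 in WT libraries. Both groups spread over about the same range and overlapped. KO and WT differed by 0.10 on the log2 scale (SE 0.27, 95% interval -0.51 to 0.71, limma adjusted p = 0.89), and its sign turned when KO replicate 3 or WT replicate 3 was left out.

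Ccr7 is known as the receptor that takes mature dendritic cells, naive T cells and B cells towards CCL19 and CCL21 in lymphoid tissue. Its gene (ENSMUSG00000037944) is on chromosome 11, minus strand, from 99144196 to 99155077. It had 6046, 2911 and 1366 normalised counts in KO libraries, against 1799, 1194 and 1761 in WT libraries. KO replicate 1 was the highest library, 4.43 times KO replicate 3, which lay below 2 of the 3 WT libraries, so the groups overlapped. The means were 3441 ± 2385 in KO and 1585 ± 339 in WT libraries (SD, n = 3 each; log2 change 0.89, SE 0.45, 95% interval -0.12 to 1.90, limma adjusted p = 0.349). Without KO replicate 1 the log2 change was 0.36 (limma adjusted p = 0.595), and without KO replicate 3 it was 1.43 (limma adjusted p = 0.14).

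Ccr7 was the receptor that passed under another scaling. When the libraries were scaled to the leukocyte marker list instead of the authors' factors, its values were 5453, 4075 and 1915 in KO, against 1288, 1049 and 1573 in WT libraries. These groups did not overlap, but the share of all genes without overlap was not counted under this scaling. The log2 change of Ccr7 was then 1.44 (limma adjusted p = 0.0317). That scaling moved the median log2 change of all tested genes to 0.59. Under it 9.32% of all genes were called, 9.22% higher in KO, with 1439 genes higher and 15 lower in KO, against 325 and 55 with the authors' factors. Relative to the median of all genes the change of Ccr7 was 0.85 with this scaling and 0.84 with the authors' factors. These had to be nearly equal, because a factor per library shifts all genes alike, so their likeness adds no support. The other 7 receptors did not pass under it.

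Markers of the cells that carry CCR7 did not all stand where Ccr7 did. KO replicate 1 and WT replicate 3 had the highest T cell marker levels, with medians over 12 genes of 0.83 and 0.85 above the 6-library mean on the log2 scale. For 10 B cell markers these medians were 0.52 and 0.61. Ccr7 itself was at 1.51 in KO replicate 1 and at -0.27 in WT replicate 3. The summed level of 10 dendritic cell markers other than Ccr7 was 9399 to 11026 in KO and 6560 to 9868 in WT libraries. That of the T cell markers was 4504 to 11017 in KO and 4296 to 10082 in WT, and that of the B cell markers 12600 to 25686 in KO and 12061 to 27590 in WT. No marker of these 3 lists was at 0 in any library.

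Cxcr4 encodes the receptor for CXCL12, which holds many leukocytes and their precursors in bone marrow and tissue. Its gene (ENSMUSG00000045382) is on chromosome 1, minus strand, from 128588199 to 128592290. It had 6521, 5339 and 2420 normalised counts in KO libraries, against 4564, 3224 and 4230 in WT libraries. The KO libraries held both the highest and the lowest of the 6 values. On the log2 scale KO minus WT was 0.15 (SE 0.34, 95% interval -0.63 to 0.92, limma adjusted p = 0.875), and it fell below 0 without KO replicate 1 or WT replicate 2.

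Cxcr2 encodes the receptor by which neutrophils follow CXCL1, CXCL2 and related chemokines. The gene (ENSMUSG00000026180) was measured by a transcript on the plus strand of chromosome 1, at 74153991 to 74161246. It had 435, 447 and 416 normalised counts in KO libraries, against 520, 610 and 279 in WT libraries. The KO libraries lay within the wider WT range. Its log2 change was -0.04 (SE 0.28, 95% interval -0.68 to 0.59, limma adjusted p = 0.96). Its sign turned when WT replicate 1 or 2 was left out and with the leukocyte scaling. The 12 neutrophil markers other than Cxcr2 summed to 11677 to 19655 in KO and 13528 to 19469 in WT libraries. Ly6g, which encodes the neutrophil surface antigen Ly6G, had 58.1, 21.4 and 21.1 normalised counts in KO and 29.9, 19.95 and 32.6 in WT libraries.

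Ccr3 encodes the eotaxin receptor of eosinophils, which binds CCL11 and CCL24. The gene (ENSMUSG00000035448) lies on the plus strand of chromosome 9 at 124021972 to 124031689. It was the receptor with the fewest reads, 11, 79 and 50 in KO libraries and 71, 73 and 416 in WT libraries. The 11 reads of KO replicate 1 carry an exact 95% Poisson interval of 5.49 to 19.7, which covers counting error only. In normalised counts these were 16.4, 94.1 and 42.3 in KO libraries, against 73.1, 76.7 and 234 in WT libraries. WT replicate 3 was 3.19 times the lowest WT library, and KO replicate 2 lay above 2 of the 3 WT libraries. Its log2 change was -1.41 (SE 0.67, 95% interval -2.91 to 0.08, limma adjusted p = 0.31). With each library left out it ran from -2.01 without KO replicate 2 (limma adjusted p = 0.24) to -0.78 without KO replicate 1, and it was -0.87 without WT replicate 3.

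Few eosinophil markers were well measured beside Ccr3. Of 9 listed, Ccr3 among them, 5 passed the low-read filter. Of these, 4 had a log2 change below 0 and 1 above 0, and none was called. Their median was -1.01 with the authors' factors, beside 0.05 for all tested genes. With leukocyte scaling it was -0.46, beside 0.59. Siglecf, the eosinophil lectin receptor, had 46.2, 53.6 and 72.7 normalised counts in KO and 104, 99.8 and 151 in WT libraries, with no overlap (log2 change -1.03, SE 0.34, limma adjusted p = 0.151). Of all tested genes, 9.24% were likewise lower in KO without overlap. The granule peroxidase gene Epx was at 0 in KO replicates 1 and 3 and in WT replicate 1. The 8 markers other than Ccr3 summed to 889 to 1926 in KO and 1672 to 3897 in WT libraries, led by the ribonuclease gene Ear2. Genes at 0 in some libraries were Epx, Ear1 and Ear6, and no marker was at 0 in all.

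Cxcr3 encodes the receptor of activated T and NK cells for CXCL9, CXCL10 and CXCL11. Its gene (ENSMUSG00000050232) is on chromosome X, minus strand, from 101731535 to 101734269. It had 462, 157 and 348 normalised counts in KO libraries, against 152, 216 and 414 in WT libraries. KO replicate 1 and WT replicate 3 were high, the same libraries in which the T cell markers were highest. KO replicate 3 was also above the 6-library mean of log2 values, at 0.39. There the medians of the T cell and NK cell lists were below it, at -0.41 and -0.28. The log2 change was 0.29 (SE 0.45, 95% interval -0.73 to 1.32, limma adjusted p = 0.796), and it was -0.03 without KO replicate 1 and also without WT replicate 1.

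Cxcr6 encodes the receptor for CXCL16 and is carried by NKT and tissue-resident T cells of the liver. The gene (ENSMUSG00000048521) lies on the plus strand of chromosome 9 at 123806475 to 123811756. It had 302, 273 and 310 normalised counts in KO libraries, against 161, 163 and 447 in WT libraries. The KO libraries were close to each other and lay between a pair of low WT libraries and the high WT replicate 3. The log2 change was 0.37 (SE 0.38, 95% interval -0.47 to 1.22, limma adjusted p = 0.668), and with each library left out it ran from 0.13 without WT replicate 1 to 0.86 without WT replicate 3 (limma adjusted p = 0.147). The 11 NK cell and innate lymphocyte markers had their highest medians, 0.83 and 0.63, in KO replicate 1 and WT replicate 3. Their sum was 3704 to 8347 in KO and 3203 to 7224 in WT libraries, and that of the T cell markers is given above.

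**Figure D3:**
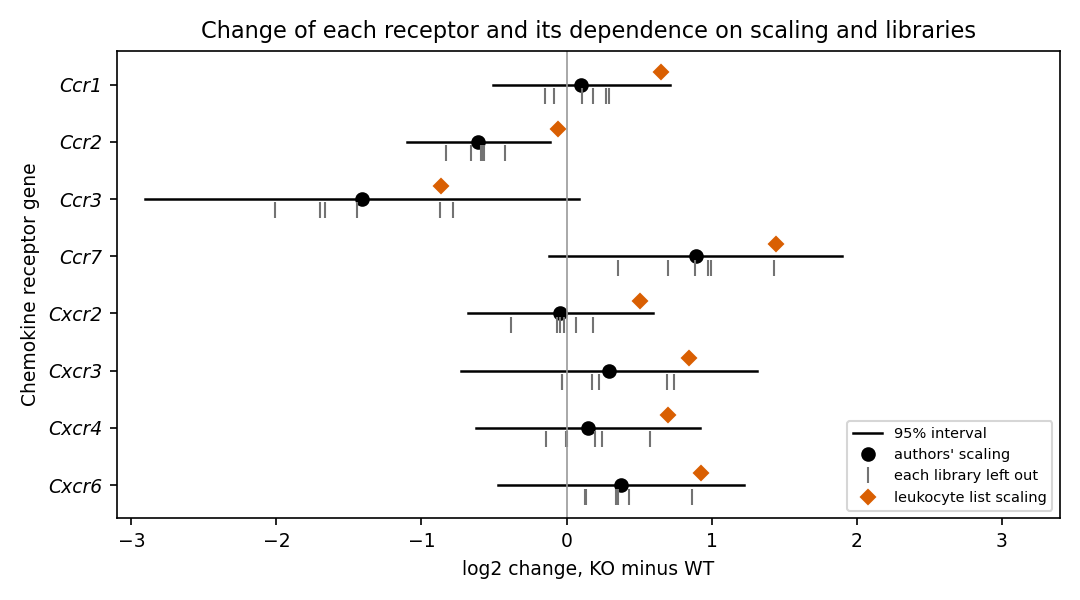
Log2 change, KO minus WT, of each receptor with the authors' scaling (black points) and its 95% interval (lines). Ticks below give the change with each library left out, and orange diamonds the change with leukocyte list scaling. The interval leaves out 0 for Ccr2 alone, and no receptor passed after adjustment over all genes with the authors' scaling.

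Within each genotype the receptors differed in how much the replicates spread. In KO libraries Cxcr2, Ccr2 and Cxcr6 varied least, with coefficients of variation of 3.59%, 5.59% and 6.70%, and Ccr3 and Ccr7 most, with 77.7% and 69.3%. In WT libraries Cxcr4 and Ccr7 varied least, with 17.4% and 21.4%, and Ccr3 and Cxcr6 most, with 71.7% and 64.1%. After each gene was centred on its 6-library mean of log2 values, Ccr1 and Cxcr2 were the most alike pair, with a root mean square difference of 0.27 over 6 libraries. Cxcr3 with Cxcr6 and Ccr7 with Cxcr4 were each at 0.45. Ccr3 was furthest from the rest, at 0.97 from Ccr2 and 1.71 from Ccr7.

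**Figure D4:**
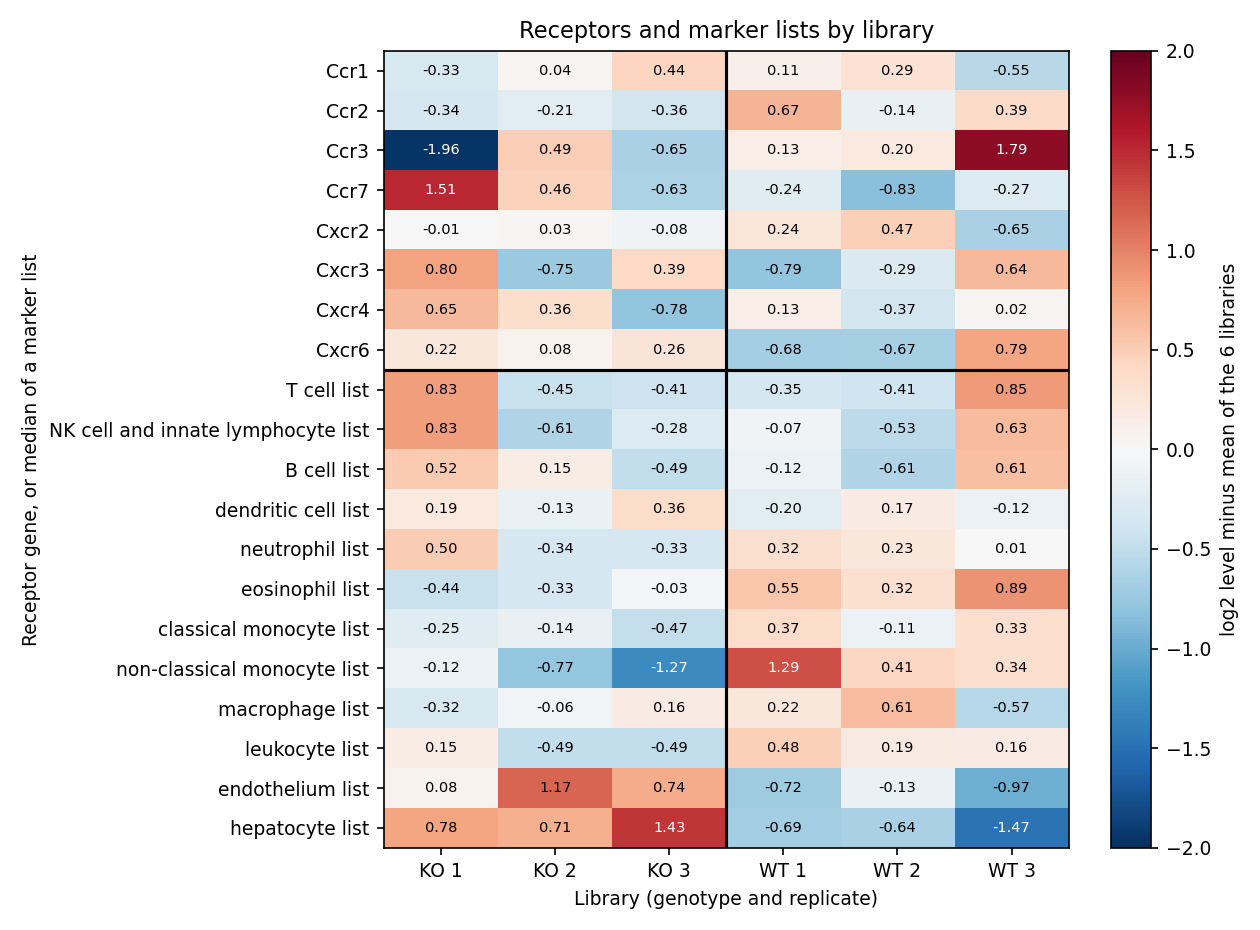
Log2 level minus the mean of the 6 libraries, for the 8 receptors (above the line) and for the median gene of 12 marker lists (below it), in KO libraries (left) and WT libraries (right). Red is above and blue below the mean. Cxcr3 is high in KO replicate 1 and WT replicate 3, as are the T and NK cell lists. It is also above the mean in KO replicate 3, where those lists are below it. Ccr7 is high in KO replicate 1 and not in WT replicate 3.

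By the same measure, the other genes most like Ccr2 over the 6 libraries were Wdr37, Prdm9 and Zbtb1, at 0.061, 0.076 and 0.078. For Ccr7 they were Rgcc, Fam213a and Gpr183, at 0.16, 0.18 and 0.25, the last a receptor that guides B cells and dendritic cells. For Ccr1 they were P2rx4, Fcgr3 and Slc39a1, at 0.070, 0.079 and 0.086, of which Fcgr3 encodes an Fc receptor of myeloid cells. For Cxcr6, Rbm12b1, Ubash3a and Diras2 stood nearest, at 0.13, 0.14 and 0.15, and Ubash3a is a regulator of T cell receptor signalling. For Cxcr4 these were Fahd2a, Zfp784 and Lta, at 0.031, 0.095 and 0.097, and for Cxcr2 Blvra, Slc7a7 and Spred3, at 0.082, 0.083 and 0.10. The gene nearest to Cxcr3 was Hgh1, at 0.15, and that nearest to Ccr3 was Inpp5j, at 0.35.

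Other chemokine receptors were compared from a list written from general knowledge. Of 9 further receptors, 8 were tested and 1 was called lower, where the share over all tested genes was 0.352%. The called gene was Cx3cr1, the fractalkine receptor of patrolling monocytes, which fell. It had 1518, 1432 and 1344 normalised counts in KO libraries, against 5737, 2988 and 2719 in WT libraries (log2 change -1.33, SE 0.27, limma adjusted p = 0.0435). Its call was lost in 3 of the 6 fits without 1 library, and with leukocyte scaling its log2 change was -0.78 (limma adjusted p = 0.0917). Markers of non-classical, patrolling monocytes, Cx3cr1 among them, were all 9 below 0, with a median of -1.39. Of these markers 4 were called lower, beside 0.352% of all tested genes. Their sum was 20729 to 50910 in KO and 61598 to 91976 in WT libraries, none was at 0 in any library, and their part in the value of Cx3cr1 was not tested. With leukocyte scaling the median of these monocyte markers was -0.84, with 2 called lower, beside 15 of all 15605 genes tested. For the 8 other chemokine receptors tested, the median log2 change was -0.53 with the authors' factors. With leukocyte scaling it was 0.020, where that of all tested genes was 0.59. Of 6 atypical receptors, which bind chemokines without G-protein signalling or lie close to them, none was called and the median was 0.94. With leukocyte scaling 2 of the 6 were called higher, Ackr3 and Ackr4 (limma adjusted p of 0.0353 and 0.0457), and the median was 1.49. Over all tested genes that scaling called 9.22% higher, with a median of 0.59. Ackr3, Ackr4 and Ackr1, found on endothelial and stromal cells, had log2 changes of 0.93, 1.47 and 1.08, with limma adjusted p of 0.0997, 0.179 and 0.213. All 12 endothelial markers had log2 changes above 0, with a median of 1.35, and none was at 0 in any library.

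Among the ligands of the 8 receptors, 17 of 21 listed genes were tested, 3 were called higher and none lower, with a median log2 change of 0.48. Called or not, 13 had a log2 change above 0 and 4 below 0. Over all tested genes 2.08% were called higher and 0.352% lower, with a median of 0.05. With leukocyte scaling 6 ligands were called higher, with a median of 1.03, beside 9.22% of all genes and a median of 0.59. With total reads 4 were called higher, beside 2.64% of all genes. With TMM factors 2 were called higher, beside 1.41%, without Cxcl1 (limma adjusted p = 0.0522). Ccl19 and Ccl21a, the ligands of CCR7, are not analysed here. Ccl24, an eotaxin that binds CCR3, had 298, 459 and 627 normalised counts in KO, against 38.1, 165 and 57.3 in WT libraries (log2 change 2.61, limma adjusted p = 0.0387). Cxcl3, a ligand of CXCR2, had 81.9, 154 and 158 in KO, against 29.9, 37.8 and 22.5 in WT libraries (log2 change 2.06, limma adjusted p = 0.0413). Cxcl1, another CXCR2 ligand, had 1910, 1704 and 1638 in KO, against 1015, 531 and 333 in WT libraries (log2 change 1.63, limma adjusted p = 0.0465). The groups did not overlap for any of these ligands, and 13.7% of all tested genes were likewise higher in KO without overlap. The ligands were named because they were called, a choice that favours groups without overlap, so this adds no support to the calls. The genes of their receptors, Ccr3 and Cxcr2, had log2 changes of -1.41 and -0.04 with groups that overlapped. edgeR's quasi-likelihood test called Cxcl3 but not Ccl24 or Cxcl1, with adjusted p of 0.0456, 0.0604 and 0.0694. Cxcl3 and Cxcl1 kept their call in 1 and Ccl24 in 2 of the 6 fits without 1 library. The hepatocyte and endothelial sums given above were also higher in KO, and their part in these values was not tested.

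Downstream of the receptors, 19 signalling genes were tested, 1 was called lower and none higher, with a median log2 change of -0.40. Called or not, 16 had a log2 change below 0 and 3 above 0. Over all tested genes 0.352% were called lower, with a median of 0.05. Pik3cg, the catalytic subunit of the phosphoinositide 3-kinase that chemokine receptors engage, had 825, 615 and 622 in KO, against 1504, 1126 and 1217 in WT libraries (log2 change -0.90, SE 0.20, limma adjusted p = 0.0486). Of 12 genes of receptor desensitisation, 1 was called lower, beside the same 0.352% of all genes, and none higher, with a median of -0.33. Called or not, 9 were below 0 and 3 above 0. Grk3, a kinase that marks active receptors for arrestin, had 1913, 1240 and 780 in KO, against 5962, 4477 and 3683 in WT libraries (log2 change -1.91, SE 0.32, limma adjusted p = 0.0227). Both medians turned with leukocyte scaling, to 0.15 and 0.22, where that of all tested genes was 0.59. That scaling uses 4 of the signalling genes themselves, Rac2, Dock2, Itgb2 and Was, and without them the median of the other 15 was -0.31 with the authors' factors and 0.24 with leukocyte scaling. Under it Grk3 kept its call while Pik3cg did not, at limma adjusted p of 0.0125 and 0.301. Pik3cg kept its call in 1 and Grk3 in 3 of the 6 fits without 1 library.

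**Figure D5:**
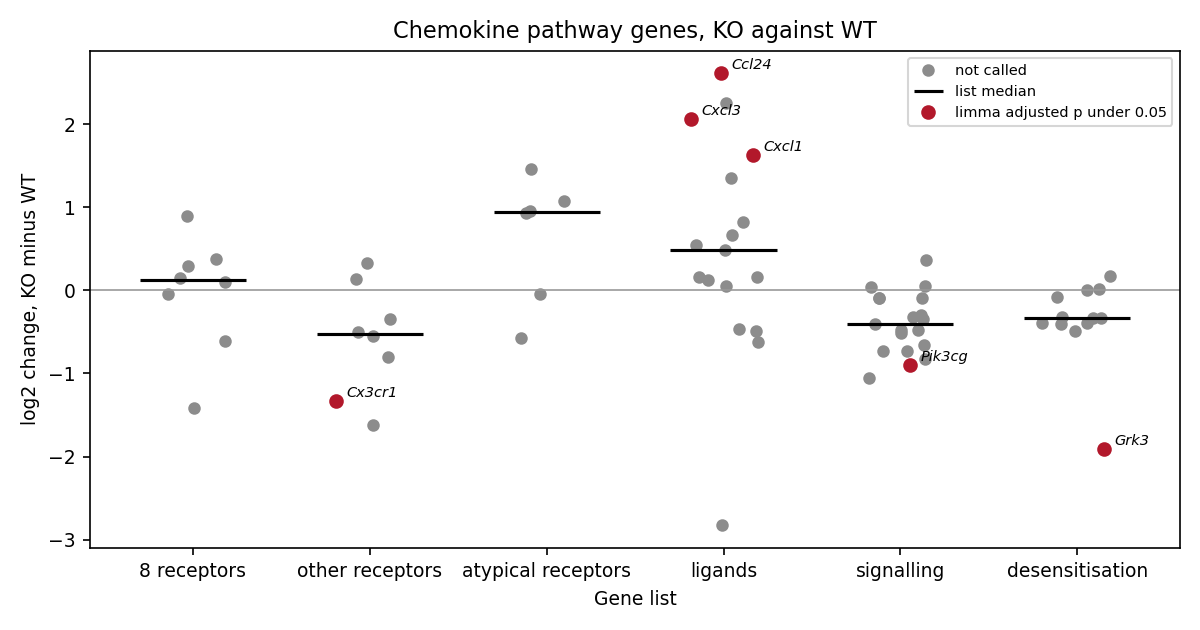
Log2 change, KO minus WT, of each tested gene in the 8 receptors and 5 related lists. Points are genes, red where the limma adjusted p is under 0.05, and bars are list medians. No point is red among the 8 receptors, 3 ligands are red above 0, and Cx3cr1, Pik3cg and Grk3 are red below 0.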

How the data were processed

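Each deposited table gives 1 library with a signal per Ensembl transcript, which the file headers name normalised counts. The values show that the deposited signal holds reads scaled by 1 factor per library. Within 0.001, 100% of values were whole multiples of the value of 1 read, so whole reads were recovered. According to the submitters' processing notes, GRCm38.p4 and the tools DESeq 1.8.3, HTSeq 0.5.3, STAR 2.4.0k, SAMtools and bcl2fastq 2.17 were used, in roles that are not stated. Libraries were strand-specific, per the labels' protocols. Annotation release, counting settings and read length are not given in the labels. Of 79382 transcripts, 78344 matched the GENCODE annotation of GRCm38. Each gene was represented by 1 transcript, that of the highest mean value in these 6 libraries.

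The filter on low genes was filterByExpr, run on the recovered reads. limma 3.58.1 with a trended prior was fitted on log2(value + 1), with genotype as the only term, on all 6 libraries, and calls were made at a two-sided, Benjamini-Hochberg adjusted p under 0.05. This scale understates changes of low genes. On the recovered reads, edgeR 4.0.16 called 278 and DESeq2 1.42.0 called 1404 genes. The script was tested on simulated data. Precision is limited by 3 libraries per group.

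The members, gene lists and tests were chosen with earlier results of these data known. Named genes were all 8 receptors, the called members of each related list or else the 3 of smallest p, the surface markers that define a list, and the 3 genes nearest to each receptor. Predicted genes, pseudogenes and receptor segments were left out of the last. Fn1, Hp, Ear2, Epx, Zbtb46 and Fscn1 were named after their values were seen. The leukocyte scaling set the median log2 deviation of 18 leukocyte genes to 0 in each library. Of the listed ligands, 2 did not match the tables' genes and are not analysed here. Of the other lists, 2 genes are not reported here and were left out of their counts and medians. Alternatives were other tests, scalings, pseudocounts and filters, summed transcripts, each library left out, and the replicate number as a block. Leukocyte scaling without KO replicate 1 was added after seeing the data.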

Additional observations from a re-analysis of the deposited data

How the results depend on the processing

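Over 18 alternatives, 8 receptors gave 144 values, of which 130 kept their direction and their side of the threshold. The count of called receptors was 0 except with leukocyte list scaling, where it was 1 (Ccr7), and with that scaling without KO replicate 1, an alternative chosen after seeing the data, where it was 2 (Ccr1 at a log2 change of 1.05 and Ccr7 at 1.12) among 6629 called genes, 42.5% of those tested. In that fit Ccr2 was at 0.17 and Cxcr2 at 0.71, and with leukocyte scaling of all 6 libraries Cxcr2 was at 0.51. The scaling's own construction moved the median of all tested genes to 0.77 and 0.59. Leaving out 1 library turned the sign of Ccr1, whose log2 changes ran from -0.15 to 0.29, Cxcr2, from -0.38 to 0.18, Cxcr3, from -0.031 to 0.74, and Cxcr4, from -0.14 to 0.57. The count of called genes, 380, was 1404 with DESeq2, 1454 with leukocyte scaling, 231 with summed transcripts and 8 to 809 without 1 library, lowest without KO replicate 3 and highest without KO replicate 1. The cause of these shifts was not tested. The share of calls that were higher in KO was 325 of 380 with the authors' factors, 220 of 289 with TMM factors, 412 of 536 with total reads and 1439 of 1454 with leukocyte scaling. With the replicate number as a block, 0 receptors and 531 genes were called. Same-numbered libraries had correlations of their deviations of -0.01, 0.09 and -0.14 across genes, so the numbers were not taken as pairs. Ccr3 rests on 11 to 416 reads per library, where counting error is largest.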

Other observations

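Genes of dendritic cells, some of which carry CCR7, split between directions, and the ones named here were chosen after their values were seen. Zbtb46, a transcription factor of conventional dendritic cells that endothelium also expresses, had 539, 1243 and 905 normalised counts in KO, against 305, 485 and 273 in WT libraries (log2 change 1.30, SE 0.33, limma adjusted p = 0.0727). Fscn1, the actin-bundling protein of mature dendritic cells, had 1231, 2409 and 1538 in KO, against 706, 1206 and 609 in WT libraries (log2 change 1.04, SE 0.31, limma adjusted p = 0.111). Flt3, the growth factor receptor of dendritic cell precursors, had 435, 145 and 214 in KO, against 497, 423 and 483 in WT libraries (log2 change -0.97, SE 0.36, limma adjusted p = 0.191). None of these passed. Ccr7 was highest in KO replicate 1, where Zbtb46 and Fscn1 were lowest among the KO libraries and Flt3 highest.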
